A study of Mus musculus with 11 samples.

Results

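The genes described here encode the proteins of the mitochondrial ribosome. They were taken as every protein-coding gene of the RefSeq annotation of the mm10 build whose symbol starts with Mrpl or Mrps followed by a number, which gave 78 genes of 21887. Of these, 49 carry the prefix Mrpl, meant for the large subunit, and 29 the prefix Mrps, meant for the small subunit. The prefix is part of the symbol, and not every product belongs to the subunit that it names. They were followed through ATAC-seq peak lists of alveolar macrophages, the resident macrophages of the lung airspaces, sorted from C57BL/6 mice. ATAC-seq marks open chromatin by the places where a transposase can insert sequencing adapters. Naive mice gave 4 samples. Mice injected in the tail vein with KP or KP-GFP cells, a mouse lung adenocarcinoma line, gave 4 samples 15 days later and 3 samples 30 days later. These numbers follow the sample labels, whereas the design text speaks of triplicates. The tumour cells were transplanted by vein rather than arising in the lung, and the labels give no age, sex or number of pooled animals. The comparisons address how open chromatin of resident macrophages differs between healthy lung and lung with earlier or later tumours.

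Mitochondrial ribosomes translate the few proteins encoded by mitochondrial DNA, all of them subunits of the respiratory chain and ATP synthase. Their ribosomal RNAs come from mitochondrial DNA, whereas all their proteins are encoded in the nucleus, made in the cytosol and imported. Many nuclear genes for mitochondrial proteins have CpG-rich promoters, and the factors NRF1, GABP (of the ETS family) and YY1 are known for binding at such genes.

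The authors deposited 1 list per group, which leaves no replicate error and allows no p-value between groups. A peak reaching to 1000 bp or less from the first or last base of a gene is called a gene-end peak of that gene. The gene is called kept when it had one in both lists compared, lost when it had one in the earlier list only, and gained when it had one in the later list only. The terms refer to calls by the peak caller, not to how open a region was. In sorted bulk cells, fewer cells with an open promoter and a less open promoter in each cell cannot be told apart. The naive, day 15 and day 30 lists held 14731, 10861 and 3352 peaks, while their depth, recovered from the peak values, was 39.2, 93.5 and 82.2 tags per 10 kb of genome. Over all protein-coding genes 34.7%, 29.6% and 12.8% had a gene-end peak in the naive, day 15 and day 30 lists. Of 12 alveolar macrophage markers, 4, 1 and 0 had one (33.3%, 8.33% and 0%), with Siglecf, Marco and Chil3 in none. The naive share was thus near that of all genes. The 4 naive markers (Pparg, Itgax, Fabp5 and Ear2) were all lost at day 15 (2.09 kept expected at equal strength), and the 1 at day 15, Mrc1, was gained. Of 10 general macrophage markers, 7, 7 and 2 did. None of 10 markers of lung epithelium and tumour cells, 6 of B cells or 8 of endothelium and fibroblasts had one in any list. Of 7 T cell markers 2 had one (28.6%), Cd3d and Cd2, both in the naive and day 15 lists only. Of 6 neutrophil markers 1 did (16.7%), S100a8, in all lists. Over all genes the shares were 34.7%, 29.6% and 12.8%. The part of other cells in the results below was not tested.

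The promoters of 6 members are shown first, since most member peaks sat over such windows. Each runs from 250 bases before the annotated start to 50 after it, 5′ to 3′ on the strand of the gene, from RefSeq on GRCm38.p6, the assembly called mm10. Mrps14 and Mrpl47 had the strongest naive peaks of the members, Mrpl12 was the strongest of those lost at day 15 and Mrpl2 was gained at day 15. Mrpl17 was chosen after its values were seen, as a member in all lists with both an NRF1 and an ETS motif, and Mrps11 as one of a head-to-head pair of members. Capitals mark matches, on either strand, to 7 motifs. Those of mitochondrial gene regulators were the NRF1 motif (its core with any base allowed at 1 position), CCGGAAG for the ETS family and AAGATGGCG for YY1. The others were GGGCGG for SP and KLF factors and TGACGTCA for CREB and ATF factors. GATTGG stood for NFY, and the TATA box was searched as TATAAA.
Mrps14: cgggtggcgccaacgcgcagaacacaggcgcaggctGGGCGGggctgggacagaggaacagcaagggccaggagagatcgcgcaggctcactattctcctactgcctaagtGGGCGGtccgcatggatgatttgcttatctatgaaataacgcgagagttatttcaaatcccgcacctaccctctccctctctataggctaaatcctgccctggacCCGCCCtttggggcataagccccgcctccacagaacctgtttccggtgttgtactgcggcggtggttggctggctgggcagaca
Mrpl47: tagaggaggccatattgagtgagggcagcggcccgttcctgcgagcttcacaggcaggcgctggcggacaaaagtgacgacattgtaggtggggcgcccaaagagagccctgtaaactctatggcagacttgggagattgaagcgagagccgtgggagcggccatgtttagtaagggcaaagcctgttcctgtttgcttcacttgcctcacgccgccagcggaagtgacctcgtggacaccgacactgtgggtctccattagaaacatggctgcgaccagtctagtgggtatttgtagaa
Mrpl12: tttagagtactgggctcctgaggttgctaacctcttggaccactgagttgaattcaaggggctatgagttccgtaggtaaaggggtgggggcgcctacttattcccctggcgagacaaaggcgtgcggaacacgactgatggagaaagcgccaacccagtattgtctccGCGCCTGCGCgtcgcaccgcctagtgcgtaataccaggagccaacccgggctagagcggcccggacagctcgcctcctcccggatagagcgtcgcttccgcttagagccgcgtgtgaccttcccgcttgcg
Mrpl2: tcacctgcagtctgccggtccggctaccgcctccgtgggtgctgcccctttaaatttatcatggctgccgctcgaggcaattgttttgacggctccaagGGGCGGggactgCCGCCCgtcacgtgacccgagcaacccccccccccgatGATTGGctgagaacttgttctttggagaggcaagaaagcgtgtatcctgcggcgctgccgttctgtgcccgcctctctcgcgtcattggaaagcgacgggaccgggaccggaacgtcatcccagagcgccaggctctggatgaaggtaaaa
Mrpl17: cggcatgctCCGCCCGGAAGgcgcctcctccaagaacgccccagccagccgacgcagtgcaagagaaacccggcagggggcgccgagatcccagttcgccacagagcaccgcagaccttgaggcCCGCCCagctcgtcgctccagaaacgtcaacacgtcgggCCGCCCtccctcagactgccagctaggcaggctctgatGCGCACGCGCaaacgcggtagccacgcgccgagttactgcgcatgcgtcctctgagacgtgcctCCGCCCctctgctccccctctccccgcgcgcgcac
Mrps11: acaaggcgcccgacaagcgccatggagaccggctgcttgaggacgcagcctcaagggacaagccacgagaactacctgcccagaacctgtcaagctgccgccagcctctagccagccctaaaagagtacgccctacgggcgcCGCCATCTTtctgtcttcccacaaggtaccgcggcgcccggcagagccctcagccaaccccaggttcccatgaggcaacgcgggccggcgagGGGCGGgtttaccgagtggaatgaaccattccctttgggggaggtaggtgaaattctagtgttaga
The window of Mrps14 lies at chr1:160194965-160195264 on the plus strand and holds 3 SP/KLF matches. The window of Mrpl47, at chr3:32736706-32737005 on the minus strand, holds none of the 7 motifs. In Mrpl12 (chr11:120484387-120484686, plus strand) the match is to NRF1, and in Mrpl2 (chr17:46645971-46646270, plus strand) 2 matches are to SP/KLF and 1 to NFY. Mrpl17 (chr7:105811038-105811337, minus strand) has 1 NRF1, 1 ETS and 4 SP/KLF matches, and its ETS match overlaps an SP/KLF match. Mrps11 (chr7:78782881-78783180, plus strand) has 1 YY1 and 1 SP/KLF match.

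Of the 78 members, 52 had a gene-end peak in naive macrophages, 42 at day 15 and 18 in the day 30 list, which is 66.7%, 53.8% and 23.1%. Over all protein-coding genes 34.7%, 29.6% and 12.8% had one. The members fell into 5 groups by list. Those in all 3 lists were 18, those in the naive and day 15 lists 22, and those in the naive list only 12. The day 15 list alone held 2, and 24 members had a gene-end peak in no list. Over all protein-coding genes these 5 groups held 12.4%, 15.2%, 6.83%, 1.92% and 63.2%, in the same order. No member appeared in the day 30 list without also being in both others. That was uncommon over all genes too. Of 2804 with a day 30 gene-end peak, 58 lacked one at day 15 only, 15 in the naive list only and 20 in both.

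**Figure D1:**
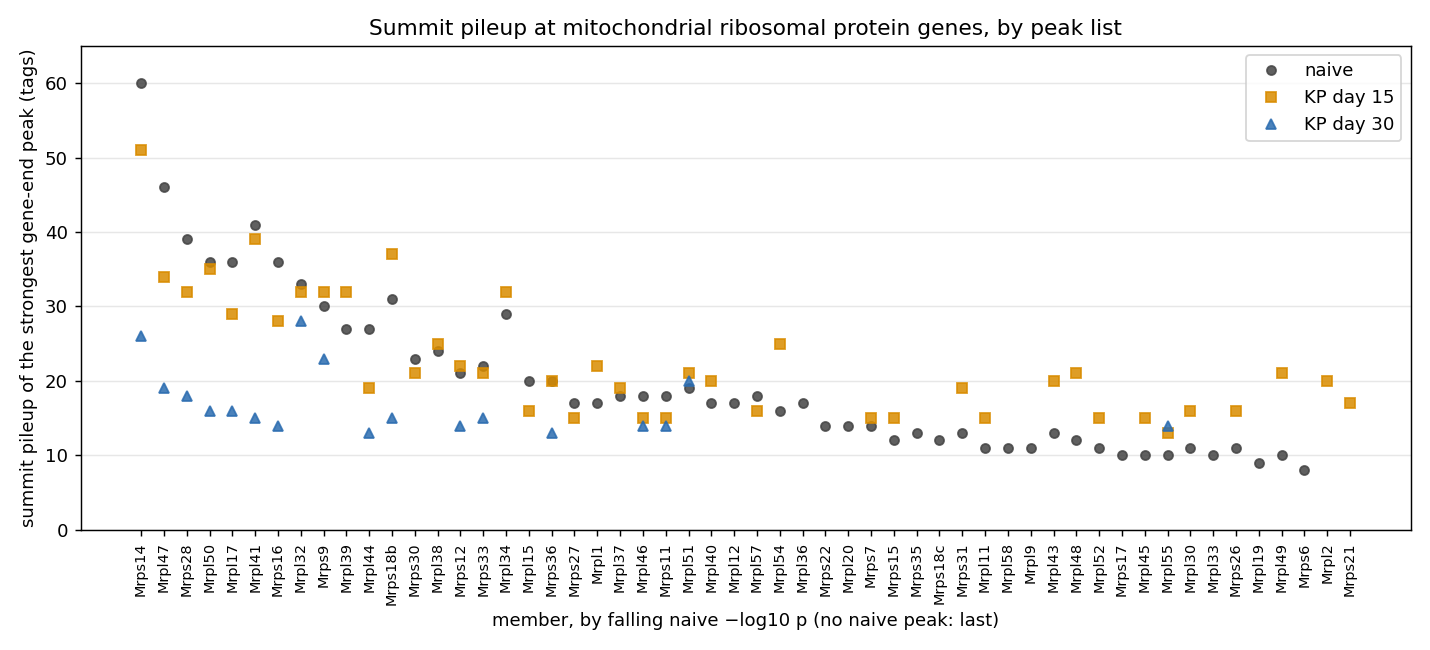
Summit pileup (tags, y axis) of the strongest gene-end peak of each of the 54 members with one in any list, ordered by naive −log10 p, with circles for naive, squares for day 15 and triangles for day 30. Naive and day 15 values lie close together, from 8 to 60 and from 13 to 51 tags, while day 30 triangles are fewer, from 13 to 28 tags, and lie mostly among the members on the left.

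The 18 members in all lists were Mrps9, Mrps11, Mrps12, Mrps14, Mrps16, Mrps18b, Mrps28, Mrps33 and Mrps36 of the Mrps series and Mrpl17, Mrpl32, Mrpl41, Mrpl44, Mrpl46, Mrpl47, Mrpl50, Mrpl51 and Mrpl55 of the Mrpl series. Pileups below are numbers of tags stacked at the summit of the strongest gene-end peak, as the peak caller counted them, in the naive, day 15 and day 30 lists in that order. Depth was 2.38 times the naive one at day 15 and 2.1 times at day 30, so equal pileups are not equal accessibility. Mrps14, a protein of the head of the small subunit, had 60, 51 and 26 tags. Its naive peak (chr1:160194906-160195565) covered the start of the gene and was stronger by −log10 p than 99.7% of naive gene-end peaks. Mrpl47, the counterpart of bacterial L29 near the exit tunnel of the large subunit, had 46, 34 and 19 tags, and Mrps28 had 39, 32 and 18. Mrpl50 had 36, 35 and 16 tags, Mrpl17 36, 29 and 16, Mrpl41 41, 39 and 15, and Mrps16 36, 28 and 14. Mrpl32, a zinc-binding protein trimmed after import before it joins the large subunit, had 33, 32 and 28. In these 8 members, the strongest of the naive list, the pileup at day 30 was the lowest of the 3 lists.

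Of the members still present at day 30, the 5 with the weakest naive peaks had 10 to 20 naive tags, and 3 of the 5 had fewer at day 30. Mrpl55 had 10, 13 and 14 tags and Mrpl51 19, 21 and 20, so that their day 30 pileups were not below the naive ones. Mrpl46 and Mrps11 share 1 peak, with 18, 15 and 14 tags, and Mrps36, whose product is now mostly described as a component of the 2-oxoglutarate dehydrogenase complex, had 20, 20 and 13. The peak counted for Mrpl51 had its naive summit 530 bp upstream of the start, at the divergent gene Ncapd2.

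At day 15, 40 of the 52 naive members were kept, which is 76.9% (95% Wilson interval 63.9 to 86.3, covering counting error over genes only), 12 were lost and 2 were gained. Over all genes 79.6% were kept, 20.4% lost and 3.04% of those without a naive gene-end peak gained. The members' kept and lost shares were near this background, while their gained share, 2 of 26 (7.69%), was above 3.04% with a Wilson interval of 2.14 to 24.1 that includes it. Loss depended on the strength of the naive peak, and members were therefore set beside non-member genes of the same decile of naive −log10 p. At equal strength 40.2 kept members were expected, against the 40 seen. In the upper 5 deciles 21 of 21 members were kept (20.5 expected, 96.7% of other genes), and in the lower 5 deciles 19 of 31 (19.8 expected, 62.4% of other genes). In all but 1 of the 40 the naive and day 15 peaks overlapped. The exception, Mrpl52, had a naive peak with 11 tags and a separate day 15 peak with 15 tags.

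**Figure D2:**
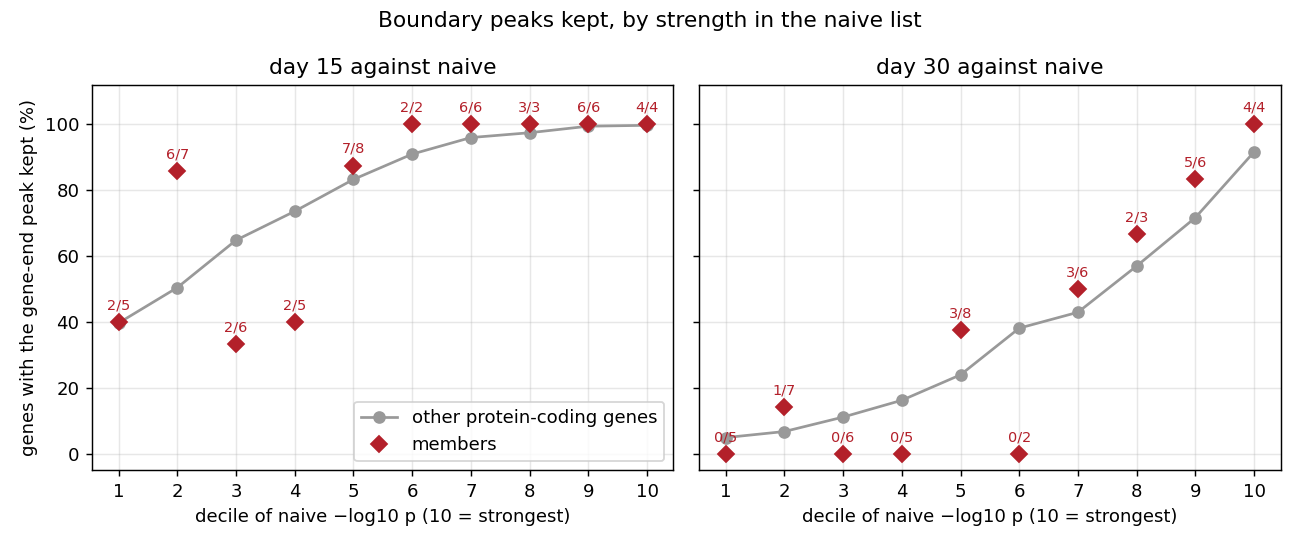
Percent of genes with a naive gene-end peak that were kept (y axis) in each decile of naive −log10 p (x axis, 10 the strongest), at day 15 (left) and day 30 (right), with grey circles for other protein-coding genes and red diamonds for members, each with its count. Over deciles 6 to 10 together 21 of 21 members were kept at day 15, and over deciles 1 to 5 together 4 of 31 at day 30. Single deciles depart from the grey line at day 15. In decile 2, 6 of 7 members were kept (50.5% of other genes), in decile 3, 2 of 6 (64.9%) and in decile 4, 2 of 5 (73.6%).

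The 12 members lost at day 15 had naive peaks of 8 to 17 tags (median 11.5), while the 40 kept ones had 10 to 60 (median 18.5), so that the ranges overlapped. The strongest of the lost was Mrpl12, the mitochondrial counterpart of the L7/L12 stalk protein that meets translation factors. Its naive peak (chr11:120484245-120484736) held 17 tags with a fold of 7.76 over local background, had its summit 40 bp upstream of the start and lies within 1000 bp of the gene Hgs as well. Mrpl36 also had 17 tags, at a peak that covered the first base of the gene. That peak lay within 1000 bp of the respiratory complex I gene Ndufs6 as well. Its summit was 2533 bp upstream of the Mrpl36 start given in the promoter table. Mrps22 and Mrpl20 had 14 tags each, Mrps35 13 and Mrps18c 12. Mrpl58, a peptidyl-tRNA hydrolase that became part of the large subunit, and Mrpl9 had 11 each. Mrpl58 was counted through a peak at its far end, 9679 bp downstream of the start, and Mrpl20 through one with its summit 720 bp inside the gene. Mrps17 and Mrpl33 had 10 tags, Mrpl19 9 and Mrps6 8. None of the 12 had a gene-end peak at day 30 either, which was also usual over all genes. Of 1552 genes lost at day 15, 58 had one at day 30.

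Among members kept at day 15 and absent at day 30 were Mrpl1, Mrpl11, Mrpl15, Mrpl30, Mrpl34, Mrpl37, Mrpl38, Mrpl39, Mrpl40, Mrpl43, Mrpl45, Mrpl48, Mrpl49, Mrpl52, Mrpl54 and Mrpl57 and Mrps7, Mrps15, Mrps26, Mrps27, Mrps30 and Mrps31, 22 in all. The 5 with the strongest naive peaks were Mrpl39 with 27 tags in the naive list and 32 at day 15, Mrps30 with 23 and 21, Mrpl38 with 24 and 25, Mrpl34 with 29 and 32, and Mrpl15 with 20 and 16. Mrpl39 lost its peak by day 30 although its naive −log10 p, 25.8, was above that of 9 of the 18 members that kept theirs. The peak counted for Mrpl38 also lay within 1000 bp of the gene Trim65, and at day 15 it was 538 bp from Mrpl38. Another naive gene-end peak of Mrpl38 lay 19 bp from the gene, while the day 15 list held only 1.

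The gained members were Mrpl2 and Mrps21, 2 of the 26 without a naive gene-end peak. Mrpl2, a protein of the peptidyl transferase core of the large subunit, had a day 15 peak at chr17:46646031-46646371 with 20 tags and a fold of 5.77, its summit 2 bp upstream of the start and the divergent gene Klc4 beside it. Mrps21 had a day 15 peak at chr3:95871441-95871640 with 17 tags and a fold of 6.04, its summit 21 bp upstream of the start. Scaled to the naive depth these are 8.39 and 7.13 tags, while naive peaks went down to 6 tags over the genome and to 8 among the members. The nearest naive peaks lay 24074 and 10758 bp from a gene end. Neither gene had a gene-end peak at day 30. Over all genes 15 of the 435 gained at day 15 had one.

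At day 30, 18 of the 52 naive members were kept (34.6%, Wilson interval 23.2 to 48.2), 34 were lost and 0 of 26 were gained (Wilson interval up to 12.9%). Over all genes 36.5% were kept, 63.5% lost and 0.245% gained, again near the members' shares. The lists differ in length, and among the strongest 3352 peaks of each, 13 of 17 naive members were kept at day 30 (76.5%, against 67.9% of all genes). Under that cut 4 members were lost and 5 gained, where 4.74% of all genes without a naive gene-end peak were gained. Over the full lists 17.1 kept members were expected at equal naive strength. In the upper 5 deciles 14 of 21 were kept, where 13.0 were expected, and in the lower 5 deciles 4 of 31, where 4.12 were. The kept members had a median naive pileup of 30.5 tags and the lost ones 13, with ranges of 10 to 60 and 8 to 29. From day 15 to day 30, 18 of 42 members were kept (42.9%, Wilson interval 29.1 to 57.8), 24 were lost and 0 of 36 gained. Over all genes 42.1% were kept, 57.9% lost and 0.506% gained, and 17.3 kept members were expected at equal day 15 strength. The comparisons share lists and are not independent of each other.

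Pileups were also divided by depth at the kept members. In these units the day 15 value was below the naive value at 40 of 40 members, with a median ratio of 0.45 and a range of 0.30 to 0.88. Over all kept genes it was below at 6016 of 6042, with a median of 0.44. The ratio nearest to 1 was at Mrpl49, with 10 naive and 21 day 15 tags. At day 30 the ratio to naive was below 1 at 18 of 18 members, with a median of 0.27 and a range of 0.17 to 0.67. Over all kept genes it was below 1 at 2767 of 2769, with a median of 0.29. From day 15 to day 30 the member median was 0.73 and that of all kept genes 0.70. It was below 1 at 14 of the 18 members, with a range of 0.44 to 1.22, and at 2485 of 2726 kept genes. Mrpl46, Mrpl51, Mrpl55 and Mrps11 were the members above 1. Whether the ratios below 1 come from the cells or from the libraries cannot be told apart with 1 list a group.

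By symbol prefix, 32 of the 49 Mrpl genes and 20 of the 29 Mrps genes had a naive gene-end peak (65.3% and 69.0%, against 34.7% of all protein-coding genes). At day 15, 25 and 15 of these were kept (24.2 and 16.0 expected at equal strength). At day 30, 9 genes of each prefix were kept, which is 28.1% of the naive Mrpl genes and 45.0% of the naive Mrps genes, where 9.85 and 7.30 were expected. Mrps36 is among the 9 kept Mrps genes. A second split followed evolution. Of 48 members whose protein has a counterpart in bacterial ribosomes, 27 had a naive gene-end peak (56.3%), and of 30 found only in mitochondrial ribosomes 25 did (83.3%). Mrpl47 and Mrpl55 were moved to the bacterial set after their values were seen, since their proteins correspond to bacterial L29 and L31. At day 15, 18 of the 27 were kept (21.01 expected) against 22 of the 25 (19.2 expected), so 9 of the 12 lost members have a bacterial counterpart. Of the 52 naive members 27 have one, and over all genes 20.4% were lost at day 15. At day 30 the numbers kept were 11 (9.67 expected) and 7 (7.47 expected). The median naive pileup was 17 tags in both sets. The differences between these sets were not tested, since genes are not replicates of a condition.

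The 24 members in no list were Mrpl3, Mrpl4, Mrpl10, Mrpl13, Mrpl14, Mrpl16, Mrpl18, Mrpl21, Mrpl22, Mrpl23, Mrpl24, Mrpl27, Mrpl28, Mrpl35, Mrpl42 and Mrpl53 and Mrps2, Mrps5, Mrps10, Mrps18a, Mrps23, Mrps24, Mrps25 and Mrps34. Of these, 19 have a bacterial counterpart (48 of all 78 members do), among them the stalk base protein Mrpl10, the partner of Mrpl12. Their nearest naive peak lay 1238 to 153805 bp from a gene end, with a median of 25054 bp, and within 10000 bp in 9. The closest to the limit from outside was Mrpl18, at 1238 bp, and from inside Mrps31, at 714 bp. Absence from a list means that no peak passed the authors' threshold at this depth and does not show closed chromatin.

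**Figure D3:**
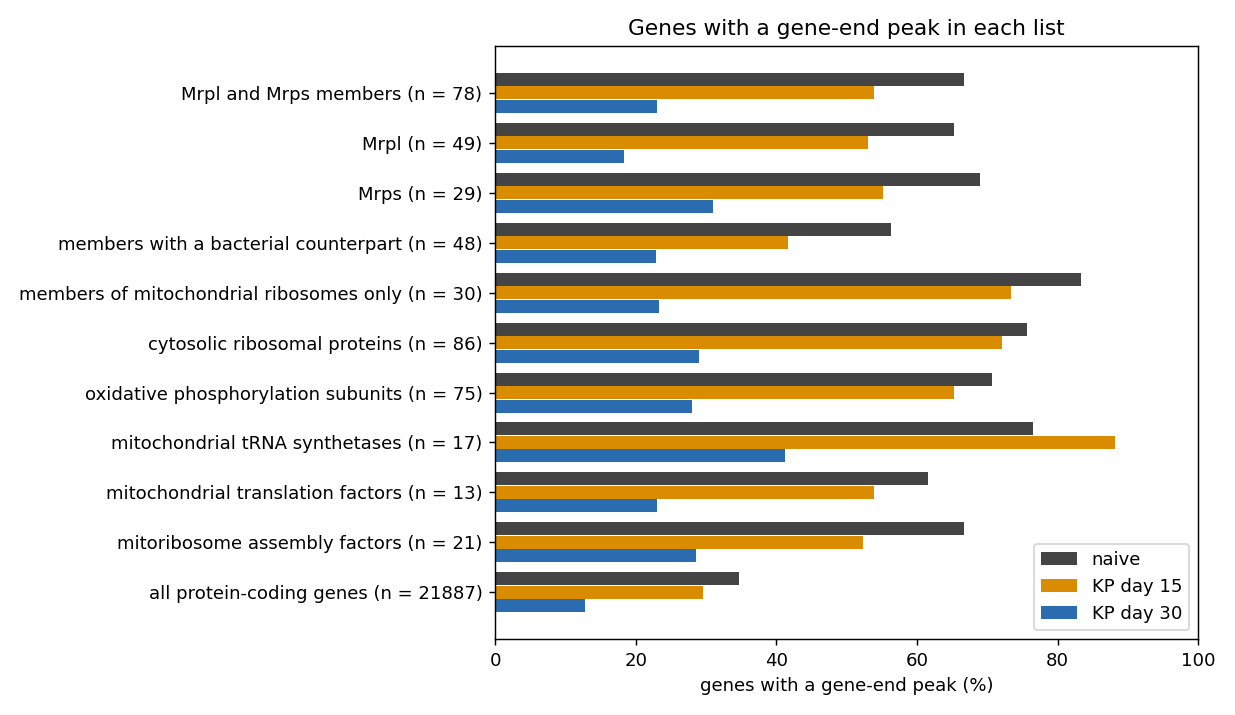
Percent of genes with a gene-end peak (x axis) in the naive, day 15 and day 30 lists (bars) for the members, their subsets, related gene lists and all protein-coding genes, with the number of genes in brackets. The members stand at 66.7%, 53.8% and 23.1%, above the 34.7%, 29.6% and 12.8% of all genes and below the cytosolic ribosomal protein genes in every list.

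Member peaks sat close to gene starts. For 46 of the 52 naive members a start was given in the RefSeq promoter table, and the summit lay within 100 bp of it in 31 (67.4%), against 54.4% of 6266 genes with a naive gene-end peak and a start. The median summit was 47 bp upstream of the start, against 46 bp over all those genes. The naive member peaks had a median pileup of 17 tags and a median width of 421.5 bp, against 19 tags and 429 bp over all genes. The median member stood at the 45.6th percentile of naive gene-end peaks by −log10 p, with 12 of the 52 above the 75th percentile and 15 at or below the 25th. At day 15 the median member stood at the 42.3rd percentile and at day 30 at the 41.1st.

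**Figure D4:**
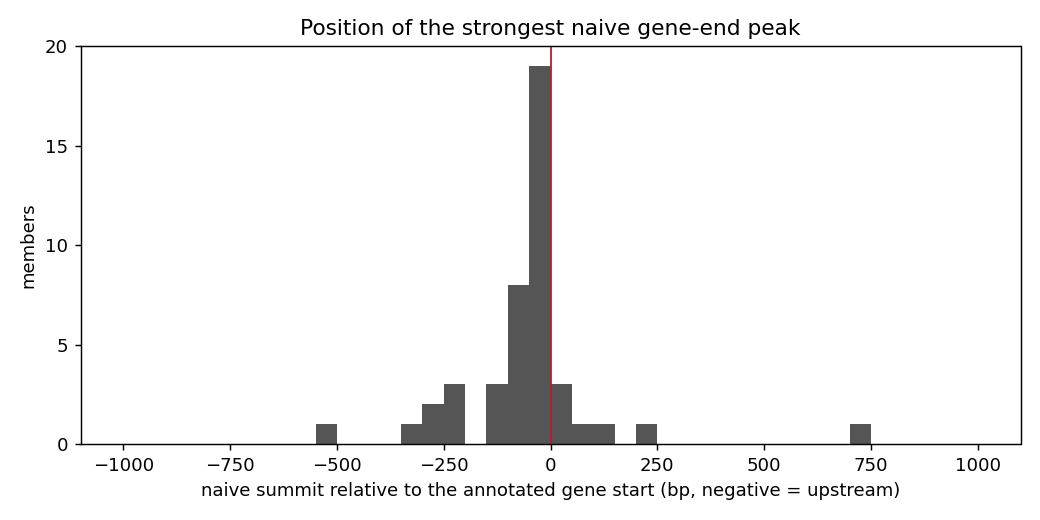
Number of members (y axis) by the position of the summit of the strongest naive gene-end peak relative to the annotated start (x axis, 50 bp bins, negative upstream), for members with a start in the promoter table and a summit within 1000 bp of it. Summits gather just upstream of the start (red line), 31 of them within 100 bp, and Mrpl36 and Mrpl58 lie outside the plot.

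Peaks near a further gene were frequent. For 27 of the 52 naive members (51.9%) the gene-end peak also lay within 1000 bp of either end of another protein-coding gene. Over all genes with a naive gene-end peak this share was 30.7%. In 18 of the 46 with a start (39.1%) the start lay opposite the start of another gene, transcribed away from it. Of the 6266 genes with a naive gene-end peak and a start, 18.8% had such a start. Some of these partners also serve mitochondria. Mrpl47 shares its peak with Ndufb5, a subunit of respiratory complex I. Mrps12, of the decoding centre, shares one with Sars2, the mitochondrial seryl-tRNA synthetase, with 21, 22 and 14 tags. Mrpl43 shares one with Twnk, the helicase that unwinds mitochondrial DNA for replication, with 13 and 20 tags and none at day 30. Mrpl49 shares one with Fau, which encodes a protein of the cytosolic ribosome, and Mrpl32 one with Psma2, a proteasome subunit. The pair Mrpl46 and Mrps11 joins a protein of each mitoribosomal subunit at 1 peak (naive chr7:78782729-78783431), so their values are not independent. Of the 18 members with such a start 17 were kept at day 15 and 9 at day 30, and of the other 28 members 19 and 8. Over other genes 88.7% of those with such a start were kept at day 15 and 52.5% at day 30, against 78.4% and 33.9% of the rest. Median naive pileups were 18 and 14 tags in the members and 22 and 18 in the other genes. At a shared peak the data do not tell which gene it belongs to.

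The promoter windows held more matches to motifs of mitochondrial gene regulators than windows of all genes. A window was given for 69 members and 17492 protein-coding genes, and the first listed was used. The ETS motif was in 25 member windows (36.2%), against 11.9% of all windows and 21.5% of those of genes with a naive gene-end peak. NRF1 was in 13 (18.8%), against 6.60% and 12.6%, and YY1 in 8 (11.6%), against 1.94% and 3.64%. At least 1 of the 3 was in 40 windows (58.0%), against 18.6% and 33.7%. The SP/KLF motif was in 34 (49.3%), against 46.3% and 68.6%, and NFY in 13 (18.8%), against 18.8% and 25.5%. CREB/ATF was in 2 (2.90%, against 2.34% and 3.85%) and the TATA box in 4 (5.80%, against 13.3% and 6.06%). A match is a description of letters and not a bound site.

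**Figure D5:**
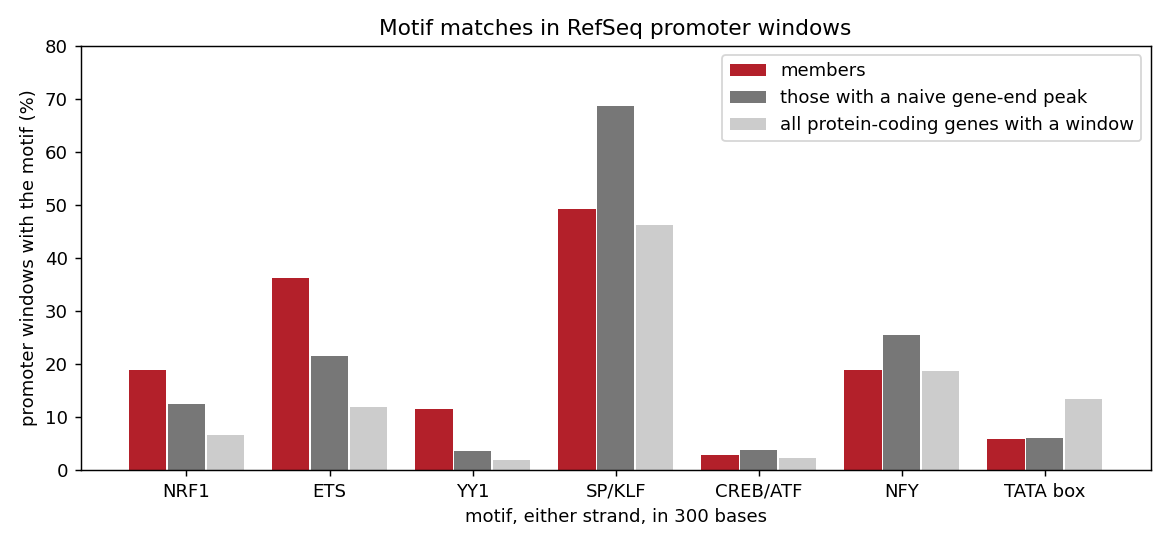
Percent of promoter windows (y axis) with a match to each motif on either strand (x axis) in members (red), genes with a naive gene-end peak (dark grey) and all protein-coding genes with a window (light grey). Members stand above both backgrounds for ETS (36.2%), NRF1 (18.8%) and YY1 (11.6%) and below the genes with a naive peak for SP/KLF (49.3%).

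Within the members, windows were also split by whether the gene had a naive gene-end peak. At least 1 of the ETS, NRF1 and YY1 motifs was in 27 of the 46 windows of members with a naive peak (58.7%), in 13 of 23 without (56.5%), and in 10 of the 17 of members in all lists (58.8%). Taken singly, NRF1 was in 11 of the 46 windows with and 2 of the 23 without a naive peak, ETS in 16 and 9, and YY1 in 4 and 4. SP/KLF matches were in 27 of the 46 and 7 of the 23. Of the 27, 13 were kept at day 30, and of the 19 without an SP/KLF match 4 were. Over other genes 40.0% of those with and 31.5% of those without this match were kept. Windows of members with and without a naive peak had the same median number of CpG dinucleotides, 21, whereas over all genes the medians were 22 with a naive peak and 6 without. Windows of members with no naive peak were thus close in CpG number to those of genes with one.

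The other genes of mitochondrial translation were described in the same way, without a test. Over all protein-coding genes 34.7% had a naive gene-end peak, and 3.04% of those without one were gained at day 15. Of 13 translation factors 8 had a naive gene-end peak, 7 were kept at day 15 and 3 at day 30, where 6.50 and 3.26 were expected at equal strength. Kept in all lists were Gfm2, which helps to recycle ribosomes, with 29, 21 and 20 tags, the release factor gene Mtrf1l with 62, 52 and 39, and Lrpprc, which stabilises mitochondrial mRNA, with 25, 29 and 19. Tufm, the elongation factor Tu, had 13 and 15 tags and none at day 30, and Taco1, an activator of Cox1 translation, was lost at day 15. Of 17 mitochondrial tRNA synthetases 13 had a naive gene-end peak, all 13 were kept at day 15 (11.3 expected), 7 at day 30 (6.24 expected), Ears2 and Fars2 among them, and Hars2 and Vars2 were gained at day 15 with 16 and 15 tags. Of 21 assembly and rRNA maturation factors 14 had one, 10 were kept at day 15 (10.5 expected) and 6 at day 30 (4.56 expected). Kept in all lists were, among others, Mterf3 with 38, 48 and 15 tags, Tfb1m, the methyltransferase of the small subunit rRNA, with 59, 47 and 18, and the GTPase gene Noa1 with 21, 24 and 23. Fastkd2, Eral1, Malsu1 and Rpusd4 were lost at day 15, and Nsun4 was gained. Of 5 mitoribosomal proteins that go by other symbols, Dap3 had a peak in the naive and day 15 lists with 10 and 15 tags, Aurkaip1 at day 15 only with 25 tags, and Ptcd3, Chchd1 and Gadd45gip1 in none.

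Cytosolic ribosomal protein genes and subunits of oxidative phosphorylation are the nearest counterparts of the members. Of 86 cytosolic ribosomal protein genes 65 had a naive gene-end peak, 57 were kept at day 15 (87.7%, 50.9 expected) and 5 gained. Rpl12, Rpl26 and Rpl36 were among the 8 lost, Rpl11, Rpl23a and Rpl35a among the gained, and Rpl7, Rps7 and Rps12 were still present at day 30. Of 75 oxidative phosphorylation genes 53 had one, 47 were kept (88.7%, 42.2 expected) and 2 gained, Sdhc and Cox6c. Cyc1, Ndufb3, Ndufb4 and Ndufs6 were among the 6 lost, and Ndufs1, Atp5b and Atp5g1 were still present at day 30. The members kept 76.9%, 40 genes where 40.2 were expected from their strength, and gained 2 of 26 (7.69%). Over all genes 34.7% had a naive gene-end peak. Of these, 79.6% were kept at day 15, and 3.04% of the genes without a naive gene-end peak were gained. At day 30 the 3 lists kept 36.9%, 39.6% and 34.6%. Median naive pileups were 17, 18 and 17 tags. Whether the members differ from these lists was not tested.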

How the data were processed

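ATAC-seq of 11 samples was used through 3 peak lists, 1 for each group. The submitters' processing notes name Bowtie2 2.3.4.1, MACS2 2.1.1 and mm10, while settings, read shifting and pooling are not given in the sources used here. Deposited lists have 10 columns without a header and were read as narrowPeak. The authors' values for each peak are a score, the fold over local background (a ratio), −log10 p, −log10 q and the summit position.

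Summit pileup and background were recovered from the fold, read as a ratio of pileup to background with 1 added to each, and from p, read as an upper Poisson tail. Every peak gave a whole pileup within 0.001 on the −log10 scale, and the most frequent background gave the depth. The step was tested on simulated peaks (Python 3.11.15, SciPy 1.17.1).

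Genes, starts and promoters came from RefSeq tables of GRCm38.p6. The strongest gene-end peak by −log10 p stood for a gene. Expected numbers sum, over members, the share kept among other genes of the same decile. Alternatives were other windows, gene starts only, −log10 q of at least 3, equal list lengths, shared peaks counted once, overlap rules and other matching.

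Members and lists were chosen with earlier results of these data known. Every member was named. Values were given for the 8 strongest naive members, those lost at day 15 or gained, and the 5 weakest kept and 5 strongest lost at day 30. Of each related list, up to 4 lost, 4 gained and 3 kept at day 30 were named, and some of these are not reported here. Bacterial counterparts follow ribosomal protein nomenclature, with Mrps18a, Mrps18b and Mrps18c counted among them, and Mrpl47 and Mrpl55 were moved there after values were seen.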

Additional observations from a re-analysis of the deposited data

How the results depend on the processing

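Over 18 results and 11 alternative settings, 104 of 114 values stayed within 1.5 times the main value, and the other 10 all came from the strongest 3352 peaks of each list, the length of the day 30 list. Under that setting 17 members had a gene-end peak among naive peaks and 16 at day 15. At day 15, 14 of the 17 were kept (82.4%, against 76.4% of all genes, with 13.1 expected at equal strength). The other 3 were lost and 2 members were gained, where 3.74% of all genes without a naive gene-end peak were gained. At day 30 against naive, 13 of 17 were kept (76.5%, against 67.9% of all genes), 4 lost and 5 gained, where 4.74% of all genes were gained. Against day 15, 12 of 16 were kept (75%, against 69.1% of all genes, with 11.2 expected), 4 lost and 6 gained, where 4.38% of all genes were gained. Equal lengths hold losses and gains close together by construction, and the larger losses were counted over the lists at their deposited lengths. With windows of 500 and 2000 bp, 36 of 47 and 41 of 53 members were kept at day 15 (36.4 and 40.9 expected). Over all genes 79.3% and 79.6% were kept. At day 30, 18 and 19 members were kept (16.1 and 18.2 expected), against 36.4% of all genes with either window. No paired analysis was possible because each group has 1 list and no sample has values of its own, and for the same reason no replicate could be left out. Depth limits what absence from the shallower naive list can show.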

Other observations

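Regulators known for control of mitochondrial genes were described in the same way. Of 10 such genes, 8 had a naive gene-end peak (80%, against 34.7% of all protein-coding genes). Of these, 7 were kept at day 15 (6.40 expected at equal strength) and 4 at day 30 (3.15 expected). Nrf1 had 18, 21 and 14 tags in the naive, day 15 and day 30 lists, Gabpa, the DNA-binding subunit of GABP, had 38, 34 and 16 through a peak also counted for the ATP synthase gene Atp5j, and Esrra, an orphan nuclear receptor, had 21, 29 and 15. Sp1 was also in all 3 lists. Myc had 13 tags in the naive list and no gene-end peak later, and Ppargc1a and Gabpb1 had none in any list. Of 8 genes of mitochondrial transcription and genome maintenance, 6 had a naive gene-end peak, 5 were kept at day 15 and 1, Tfb2m, at day 30, where 2.17 were expected. Polrmt, the mitochondrial RNA polymerase, had 9 naive tags and was lost at day 15.

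Among the strongest 3352 peaks of each list, Mrpl46, Mrpl51, Mrpl55, Mrps11 and Mrps36 had a gene-end peak at day 30 only, and Mrpl1 and Mrpl54 at day 15 only. Mrpl38 and Mrps30 had one in the naive list only. Mrpl46 and Mrps11 count through the same peak. Over all genes 4.74% of those without a naive gene-end peak had one at day 30 under this setting.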
